A study of Saccharomyces cerevisiae with 7 samples.

Results

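Narrow internal peaks of the histone demethylase Rph1 are the 202 regions under 2000 bp wide among the 731 peaks (27.6%) of a chromatin immunoprecipitation sequencing (ChIP-seq) experiment in the budding yeast Saccharomyces cerevisiae. Width was the end minus the start plus 1, and the first and last peak of each of the 16 chromosomes (32 peaks) were left out, which left 699 internal peaks. Of these, 273 were mid-width (2000 to 3192 bp) and 224 were wide (3217 to 8927 bp). All positions are those of the build named sacCer2 in the submitters' processing notes. No annotation of that build was at hand, so no gene is assigned to a peak and peaks are named by chromosome, start and end.

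All 7 libraries came from MATa cells of the CEN.PK background in which Rph1 carried an HA epitope tag marked by HYG. Wild-type cells (RPH1-HA-HYG) were taken in log phase at an OD600 of about 1.0 in YPL, a rich medium with lactate as carbon source (2 libraries), and, after a shift into the synthetic lactate medium SL, 1 h later (2 libraries). The 2 SL labels each list a different part of the recipe and were treated as the same medium. The ppm1 deletion strain (RPH1-HA-HYG, ppm1::kanMX) gave 2 libraries in YPL, and the strain with RPH1-S412A-HA-HYG, in which a serine of Rph1 is replaced by alanine, gave 1 library in YPL. An input or untagged sample was not analysed here, and the labels do not say whether replicates were separate cultures. The p-values therefore measure only the spread between these samples. That spread was pooled over all peaks, so the SE and p-value of a single peak do not rest on its own libraries alone.

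As background, Rph1 is a JmjC-domain enzyme that removes methyl groups from lysine 36 of histone H3 and carries C2H2 zinc fingers that bind DNA. Ppm1 methylates the catalytic subunit of the protein phosphatase PP2A, using S-adenosylmethionine as methyl donor. The switch to SL takes away the amino acids of the rich medium, and with them preformed methionine, from which S-adenosylmethionine is made. The study asked how Rph1 on chromatin responds to the switch, to loss of Ppm1 and to loss of the serine.

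The deposited value is a signal per peak, which in each library was a whole multiple of 1 step. The steps fit a read number per peak, scaled to 22000000 in all, with implied totals of 13808893 to 34820208 reads. Under that reading a narrow peak held at least 1010 reads in every library, and the median narrow peak held 1954 to 4956 reads, a counting error of 1.42% to 2.26%. Replicates differed at the median narrow peak by 0.06 on the log2 scale in wild-type YPL, by 0.23 in SL and by 0.19 in the ppm1 deletion. In SL the first replicate was the higher at 175 of the 202 narrow peaks, by a median of 1.17-fold, and in the ppm1 deletion the first was the higher at 192, by 1.14-fold. Narrow peaks took 3.27% and 3.40% of the implied reads in wild type in YPL, 3.07% and 2.62% in SL, 3.38% and 2.98% in the ppm1 deletion, and 2.68% in S412A.

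Narrow peaks spanned 1083 to 1995 bp, with a median of 1572 bp and 317 kb in all. The narrowest were V:23172-24254 (1083 bp), IV:9708-10796 (1089 bp) and II:451755-452886 (1132 bp). Every chromosome held at least 4 of them, and their share of the internal peaks ran from 20.0% on chromosome II to 50.0% on chromosome I, where they were 5 of 10, with 40.0% on X and 38.5% on XV. The nearest other peak lay a median of 5352 bp away (range 9 to 36519 bp), against 4781 bp for mid-width and 4781 bp for wide peaks. Within the narrow peaks the signal per kb was higher the narrower the peak (Spearman's rho -0.43 over 202 peaks, mean of 7 libraries), and its median went from 2303 in the lowest of 4 width bins (40 peaks) to 1934 in the highest (71 peaks). Over all 699 internal peaks the same rho was 0.02. Width is the divisor of signal per kb, so both rho values are tied to width by construction and are descriptions only. The sources used here do not say how the widths were set, so whether width and signal are separate measurements is not known. At the width limit, the 3 widest narrow peaks, VIII:143938-145924, XII:805371-807364 and VI:166107-168101, had means over the 7 libraries of 1464, 2177 and 2038 per kb and log2 changes in SL of -0.11, -0.90 and -0.43. The 3 peaks just above, IV:587405-589404, XIV:479677-481680 and IV:555197-557203, had 1860, 1790 and 2468 per kb and changes of 0.86, 0.60 and 0.53. The changes were thus below 0 at the 3 peaks under the limit and above 0 at the 3 over it. Peaks this few cannot tell whether direction changes at the limit in general, which was not tested. Spearman's rho of width with the log2 change in SL was -0.07 over the narrow peaks and 0.15 over all 699 internal peaks.

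Signal per kb was the quantity used to set peaks of different width side by side. The median narrow peak held 2260 and 2367 per kb in the wild-type YPL libraries, 2154 and 1817 in SL, 2425 and 2116 in the ppm1 deletion and 1878 in S412A. The mid-width medians were lower in each of the 7 libraries (1686 to 2097), while the wide medians were lower than the narrow ones in 5 libraries and higher in both SL libraries (2419 and 1937). Spread evenly over the 11920679 bp that reach to the last peak of each chromosome, the scaled library total would give 1846 per kb. In wild type in YPL 162 and 166 of the 202 narrow peaks lay above that level (80.2% and 82.2%), in SL 133 and 95 (65.8% and 47.0%), in the ppm1 deletion 166 and 147 (82.2% and 72.8%), and in S412A 118 (58.4%). Mid-width shares were, in the same order, 60.1%, 60.8%, 56.4%, 36.6%, 65.6%, 54.95% and 30.8%. Those of wide peaks were 63.8%, 65.6%, 73.2%, 56.25%, 69.6%, 58.9% and 37.95%, above the narrow shares in both SL libraries. The sources used here do not give what the library total counts, so a value under that level does not show a lack of binding.

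**Figure D1:**
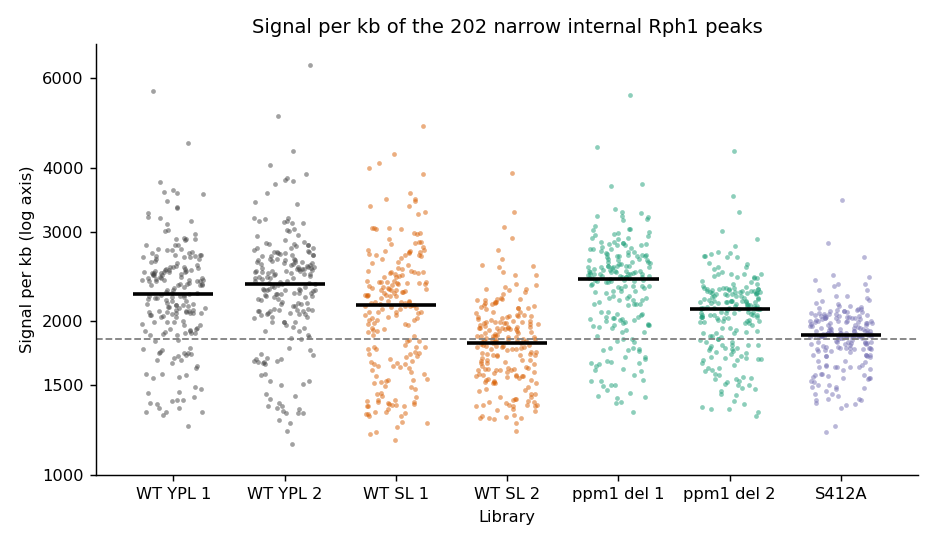
Signal per kb (log axis) of each of the 202 narrow peaks in the 7 libraries, 1 point a peak; black bars are medians and the dashed line is the level of an even spread, 1846 per kb. The medians run from 2425 in the first ppm1 library to 1817 in the second SL library, and the S412A points span the narrowest range.

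The narrow peak with the most signal per kb was XIII:267219-268840. Its signal was 9197 and 10306 in wild type in YPL, 6323 and 4470 in SL, 9013 and 7012 in the ppm1 deletion and 5619 in S412A, with a mean over the libraries of 4575 per kb. Wild-type YPL stood highest and the ppm1 deletion next, while both SL libraries and S412A were below all 4 of these libraries. The next was X:525561-527502, with a signal of 8694 and 9816 in wild-type YPL, 5444 and 4305 in SL, 8545 and 6839 in the ppm1 deletion and 5522 in S412A (3617 per kb over all). It was divided in the same way. XII:481000-482603 (3476 per kb over all) was different: SL, at 6414 and 6265, was above wild-type YPL at 5763 and 6241, followed by the ppm1 deletion at 5138 and 5262 and S412A at 3948. The other 7 of the 10 highest, with 2802 to 3362 per kb over all libraries, were X:18384-19594, XV:618732-620012, III:113706-115152, XVI:678348-680319, X:227258-229065, XV:274030-275341 and V:430676-431902. The 5 lowest had 1361 to 1480 per kb. The lowest of all, XV:22587-24515, ranged only from 2472 to 2782 in signal over the 7 libraries, and the others were XVI:504568-506504, IV:1151754-1153729, VIII:143938-145924 and XVI:82387-84273.

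The order of the narrow peaks was shared by the YPL libraries and not by SL. Across the 202 peaks, Pearson's r of log2 signal per kb between wild-type YPL libraries and those of the ppm1 deletion was 0.91 to 0.94, and 0.90 with S412A, but 0.20 to 0.23 with SL. Within groups r was 0.96 between the SL replicates and 0.98 between those of wild-type YPL. SL against the ppm1 deletion gave 0.08 to 0.16, and against S412A 0.12 to 0.17. These are descriptions across peaks, which are not replicates. Wild-type YPL against SL gave 0.31 to 0.39 over mid-width and 0.12 to 0.16 over wide peaks. Of the 20 top narrow peaks per kb in wild-type YPL, 7 were among the 20 highest in SL, 14 among those of the ppm1 deletion and 12 among those of S412A. By group mean X:138693-140653 was the 6th highest in YPL and the 177th in SL, while X:18384-19594 was the 8th in YPL and the highest in SL (4058 ± 1108 per kb, SD, n = 2). The SL libraries had 4841 and 3275 per kb at X:18384-19594, and in the second XII:481000-482603 was higher (3906). The change of X:18384-19594 in SL did not pass (log2 0.17, limma adjusted p = 0.256). The spread of log2 signal per kb over the 202 peaks was smaller in S412A (SD 0.21) than in each of the other libraries (0.27 to 0.41). It was also smallest in S412A over mid-width peaks (SD 0.312, against 0.374 to 0.514) and over wide peaks (0.289, against 0.355 to 0.561).

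**Figure D2:**
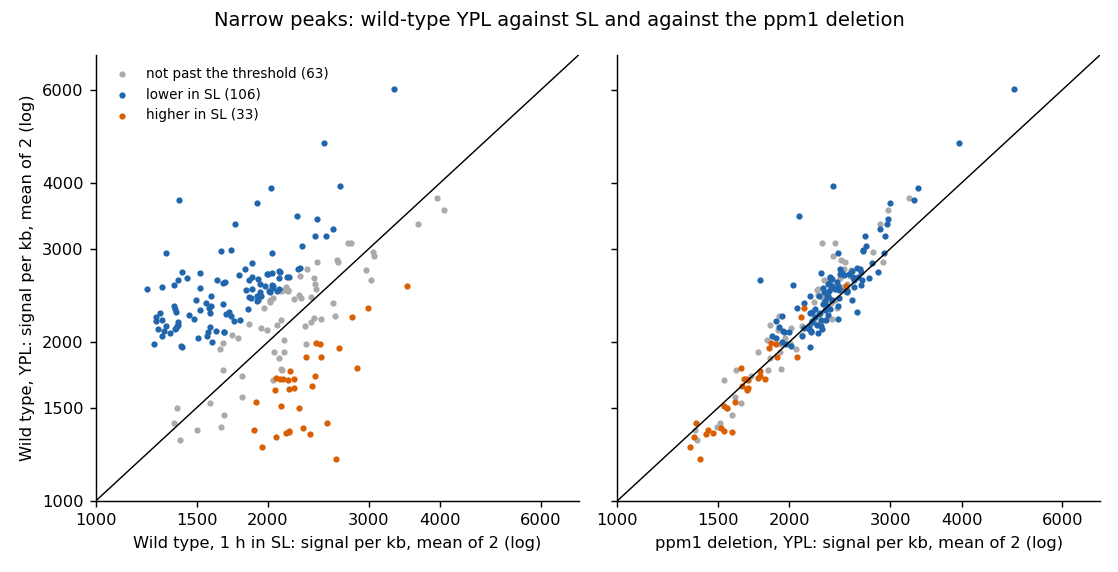
Mean signal per kb (log axes, 2 libraries each) of the 202 narrow peaks in wild type in YPL, on the vertical axes, against wild type in SL (left) and the ppm1 deletion (right); colours give the limma call for SL over wild-type YPL in both panels, and the line marks equal values. In the left panel the 106 peaks lower in SL and the 33 higher in SL lie on opposite sides of the line, and in the right panel the same peaks lie along it.

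The first comparison set wild type after 1 h in SL against wild type in YPL. After the switch 106 of the 202 narrow peaks (52.5%) fell and 33 (16.3%) rose under limma with Benjamini-Hochberg adjustment over all 731 peaks (threshold 0.05), where 36.7% of all peaks fell and 23.3% rose. In all 139 changed (68.8%, against 59.9% over all peaks). Narrow peaks had a median log2 change of -0.29, against -0.04 over mid-width, 0.02 over wide and -0.09 over all peaks. Of the 273 mid-width peaks 96 fell and 71 rose, and of the 224 wide peaks 63 fell and 62 rose. The difference between width classes was not tested. The SL and wild-type YPL values were fully apart at 166 narrow peaks (82.2%), against 78.9% over all peaks. The 106 peaks that fell had a median of 2495 per kb in YPL and 1697 in SL, and the 33 that rose had 1650 in YPL and 2221 in SL. The counts depended on single libraries: 131 fell and 19 rose when the first SL library was left out, and 80 and 51 when it was the second. Leaving out the first wild-type YPL library gave 65 and 15, and the second 56 and 14. With each peak's own spread in place of the pooled one, 46 fell and 8 rose.

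The narrow peak that fell most in SL was X:138693-140653. Its signal was 7099 and 7488 in wild-type YPL, 2702 and 2789 in SL, 7283 and 5696 in the ppm1 deletion and 4527 in S412A. SL stood below every other library, and S412A lay between SL and the rest. Its mean fell from 7294 ± 275 to 2746 ± 61.7 (SD, n = 2 each; log2 -1.41, SE 0.14, limma adjusted p = 1.44e-20). XII:282478-284203 was next, with 4790 and 5393 in wild-type YPL, 2350 and 2233 in SL, 5469 and 4617 in the ppm1 deletion and 3646 in S412A (log2 -1.15, SE 0.13, limma adjusted p = 1.33e-17). IV:321915-323859 stood at 4950 and 4826 in wild-type YPL, 2277 and 2510 in SL, 4962 and 4399 in the ppm1 deletion and 3896 in S412A (log2 -1.03, SE 0.13, limma adjusted p = 1.35e-14). At both peaks the ppm1 libraries overlapped the wild-type YPL values while the SL libraries lay lowest. In SL these peaks held 1400, 1328 and 1231 per kb by group mean, which ranked 177th, 192nd and 202nd of the 202 narrow peaks. The lowest values of any narrow peak in the SL libraries were 1171, at IV:321915-323859 itself, and 1219. The other 7 of the 10 largest falls were XVI:302694-304543 (log2 -0.96), III:113706-115152 (-0.95), VII:496284-497780 (-0.94), XV:1027559-1029382 (-0.94), I:150811-152248 (-0.93), X:525561-527502 (-0.93) and II:45274-47013 (-0.91). None of the 10 passed the threshold in the ppm1 deletion (log2 -0.30 to 0.07, 7 of them below 0). There 4 of the 202 narrow peaks (1.98%) passed as lower, against 1.23% over all peaks. An unadjusted limma p under 0.05 for a fall was found at 11 of the 202 narrow peaks and at 41 of all 731 peaks.

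The largest rise was at IV:963406-965120, the narrow peak with the lowest mean in wild-type YPL signal per kb (1199 ± 68.2, SD, n = 2). Its signal was 2139 and 1974 in wild-type YPL, 5237 and 3785 in SL, 2428 and 2364 in the ppm1 deletion and 2407 in S412A. Both SL libraries were above every other library, and the 5 YPL libraries lay within 1974 to 2428. Its mean rose from 2057 ± 117 to 4511 ± 1026 (SD, n = 2 each; 2.17-fold, log2 1.12, SE 0.13, limma adjusted p = 1.98e-16). XVI:876345-878030 rose from 2357 and 2373 to 4807 and 3732, with 2334 and 2292 in the ppm1 deletion and 2333 in S412A (log2 0.84, SE 0.13, limma adjusted p = 6.18e-10). XV:656954-658792 rose from 2486 and 2433 to 4740 and 3978, with 2691 and 2567 in the ppm1 deletion and 2575 in S412A (log2 0.82, SE 0.12, limma adjusted p = 8.81e-10). In each of these the first SL library was the higher. The other 7 of the 10 largest rises were X:145826-147476 (log2 0.74), X:571911-573192 (0.69), XIII:234375-236171 (0.68), XV:54191-55479 (0.68), X:158974-160632 (0.66), XVI:22729-24239 (0.63) and XVI:82387-84273 (0.62). In the ppm1 deletion these 10 had log2 changes of -0.11 to 0.23 and in S412A of -0.18 to 0.23, with 0 passing in either under limma, where 0 of the 202 narrow peaks had an unadjusted p under 0.05 for a rise in either comparison. Over all 731 peaks 4 had such a p in the ppm1 deletion (3 mid-width and 1 wide) and 16 in S412A. Of the 16 in S412A, 14 were first or last peaks of a chromosome, 2 were wide and 0 mid-width. Of the 10 largest rises in SL, 3 were also named for S412A: IV:963406-965120, XIII:234375-236171 and X:145826-147476. They passed as higher in S412A with libraries centred on their medians.

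**Figure D3:**
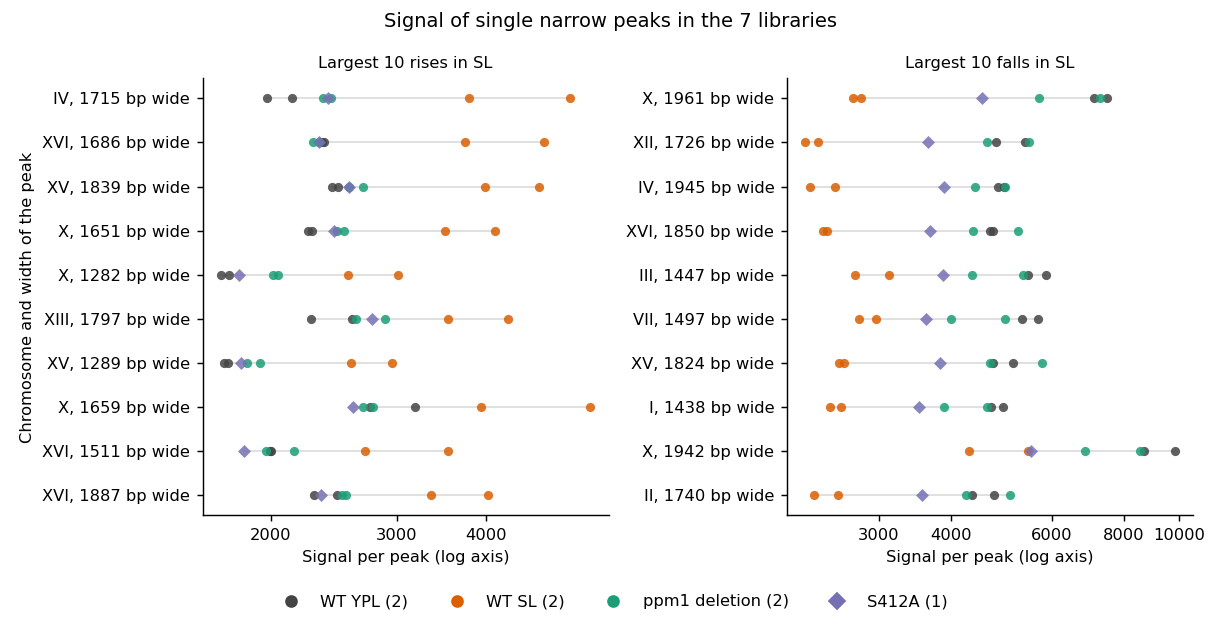
Signal per peak (log axis) in the 7 libraries at the 10 narrow peaks with the largest rises (left) and falls (right) in SL, labelled by chromosome and width; circles are single libraries of wild type and the ppm1 deletion and diamonds the S412A library. At the peaks that rose both SL libraries stand apart to the right of the 5 YPL libraries, and at those that fell they stand to the left, except at the X peak 1942 bp wide, where S412A (5522) lies beside an SL library (5444).

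Narrow peaks that followed each other along a chromosome could move in opposite directions in SL. Over 57 pairs of narrow peaks with no other peak between them, both fell in 15, both rose in 3, and they were called in opposite directions in 6, while at least 1 did not pass in 33. Among all 202 narrow peaks 52.5% fell and 16.3% rose. Pairs of other peaks were not counted, and whether neighbours moved together or apart was not tested. On chromosome X 4 consecutive narrow peaks lay from 135692 to 160632. X:135692-137106 rose (log2 0.38, signal 2587 and 2714 in YPL, 4098 and 2896 in SL), X:138693-140653, starting 1586 bp further on, fell (-1.41), and X:145826-147476, 5172 bp beyond that, rose (0.74, signal 2280 and 2252 in YPL, 4107 and 3502 in SL). The 4th, X:158974-160632, rose as well (0.66, signal 2749 and 3180 in YPL, 5582 and 3930 in SL). At 9 narrow peaks within 30 kb of a chromosome's outermost peak ends, a distance chosen after the data were seen, the median log2 change in SL was 0.20, with 3 higher and 2 lower, and at the remaining 193 it was -0.31, with 30 higher and 104 lower.

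**Figure D4:**
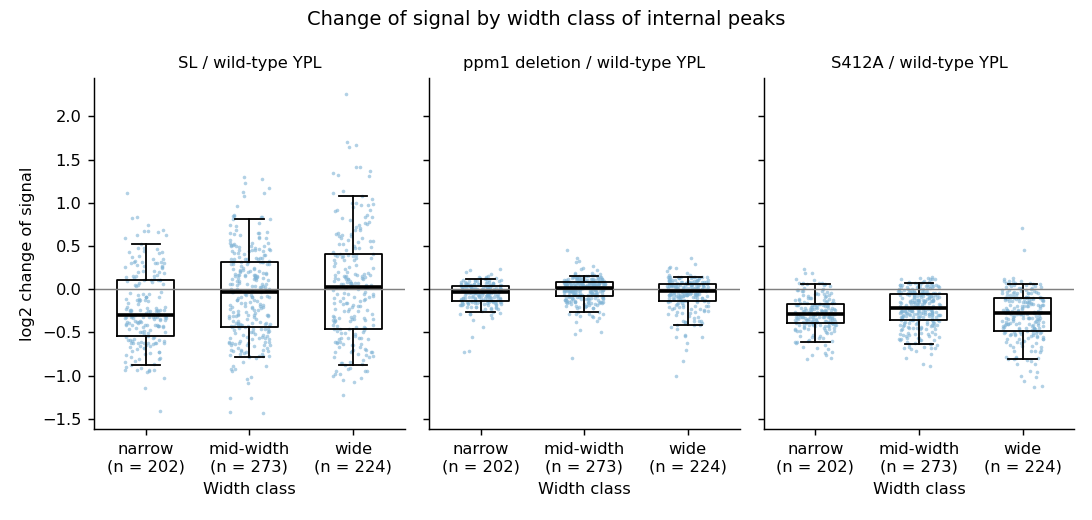
Log2 change of signal against wild type in YPL for narrow, mid-width and wide internal peaks in SL, the ppm1 deletion and S412A; boxes give the quartiles and median, whiskers the 5th and 95th percentiles, and points single peaks. In SL the narrow median (-0.29) lies below the mid-width (-0.04) and wide (0.02) medians, and in S412A the medians are -0.29, -0.22 and -0.28.

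Because a peak's height in wild-type YPL enters its own log2 change, height was set by the ppm1 libraries, which are outside the SL contrast. Those libraries are also from YPL. Over narrow peaks their r was 0.91 to 0.94 with wild-type YPL but 0.08 to 0.16 with SL. A split by them is therefore close to a split by wild-type YPL height. The shares by height, here and for S412A, are descriptions and no separate evidence. Internal peaks were split at 1860 and 2310 per kb in the ppm1 deletion into low, middle and high groups of equal number. Of the 89 narrow peaks in the high group 63 fell (70.8%) and 1 rose, of the 69 in the middle group 42 fell (60.9%) and 5 rose, and of the 44 in the low group 1 fell and 27 rose (61.4%). In the high group 65.6% of mid-width and 50.0% of wide peaks fell, and in the middle group 51 of 100 and 20 of 64. In the low group 45.9% of mid-width and 53.8% of wide peaks rose. The high group held 89 of the 202 narrow, 64 of the 273 mid-width and 80 of the 224 wide peaks. The groups were chosen after the data were seen, and the difference between width classes within a group was not tested.

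The second comparison was between the ppm1 deletion and wild type, both in YPL. Of the 202 narrow peaks 4 (1.98%) fell and 0 rose, against 1.23% that fell and 0% that rose over all peaks, under limma with Benjamini-Hochberg adjustment. Their median log2 change was -0.04 and that over all peaks was -0.01, and libraries did not overlap at 65 narrow peaks (32.2%, against 35.4% over all peaks). Leaving out the first wild-type YPL library left 2 narrow peaks that passed as lower, the second left 0 and either ppm1 library 0, and with each peak's own spread 0.

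XIII:539853-541349 was the narrow peak that fell most without Ppm1. Its signal was 4776 and 5573 in wild-type YPL, 3761 and 2981 in SL, 3042 and 3175 in the ppm1 deletion and 3043 in S412A. Both wild-type YPL libraries stood above all others, and the ppm1 and S412A libraries lay within 3042 to 3175. Its mean fell from 5175 ± 564 to 3108 ± 94.1 (SD, n = 2 each; log2 -0.73, SE 0.12, limma adjusted p = 1.08e-06). XVI:678348-680319 had 7041 and 8521 in wild-type YPL, 6014 and 4538 in SL, 4883 and 4533 in the ppm1 deletion and 4427 in S412A (log2 -0.72, SE 0.15, limma adjusted p = 3.79e-04). IX:426875-428184 had 3538 and 3318 in wild-type YPL, 2186 and 2084 in SL, 2292 and 2359 in the ppm1 deletion and 2318 in S412A (log2 -0.56, SE 0.13, limma adjusted p = 0.00234). At these peaks wild type in YPL alone was high, and the remaining 5 libraries were lower, with limma calls in all comparisons with wild-type YPL, which share those libraries. The 4th peak, XV:831886-833188, behaved otherwise: 3923 and 4104 in wild-type YPL, 3970 and 3213 in SL, 3195 and 2756 in the ppm1 deletion and 2357 in S412A (log2 -0.44 in the ppm1 deletion, SE 0.12, limma adjusted p = 0.0343). There the first SL library lay between the wild-type YPL values (log2 -0.17 in SL, limma adjusted p = 0.237).

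The narrow peaks with the smallest p for a fall that did not pass were XIV:173268-175084 (log2 -0.36), IV:1344833-1346066 (-0.33), VII:496284-497780 (-0.30), IX:174342-175756 (-0.29) and VII:345534-347095 (-0.28), with limma adjusted p-values of 0.298 to 0.521. The XIV and IV peaks passed with libraries centred on their medians (limma adjusted p = 0.0402 and 0.0325), and with quantile normalization VII:496284-497780 passed as well (0.0266). For a rise they were IV:963406-965120 (log2 0.22), X:571911-573192 (0.23), XII:946858-948554 (0.20), XIII:234375-236171 (0.18) and XI:550972-552479 (0.15), each with a limma adjusted p of 0.997. X:571911-573192 passed in a fit of only the 2 groups compared (limma adjusted p = 0.00869).

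The third comparison set the single S412A library against wild type in YPL. In S412A 53 of the 202 narrow peaks (26.2%) were lower past the threshold and 0 higher, against 17.5% lower and 1.92% higher over all peaks, under limma with the spread borrowed from the other groups. Of the 14 higher peaks, 13 were first or last peaks of a chromosome, which are not internal, 1 was wide and 0 were mid-width. The single library lay below both wild-type YPL libraries at 182 narrow peaks and above both at 12, which is 96.0% outside them, against 92.5% over all peaks. Median log2 changes were -0.29 over narrow, -0.22 over mid-width, -0.28 over wide and -0.25 over all peaks, and the share of implied reads in all peaks was lowest in this library (18.6%, against 19.7% to 24.1%). With libraries centred on their medians the narrow median was -0.06, and 17 narrow peaks were lower and 9 higher, and with quantile normalization 27 and 4. Leaving out the first wild-type YPL library left 3 that passed as lower, the second left 0 and either ppm1 library 0. Leaving out the first SL library gave 104, the second 103, and with each peak's own spread 0.

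By log2 change the lowest narrow peaks in S412A were XVI:678348-680319 (-0.81, 4427 against 7781 ± 1047 in wild-type YPL, SD, n = 2), XIII:267219-268840 (-0.79, 5619 against 9752 ± 784, n = 2) and XV:831886-833188 (-0.77, 2357 against 4014 ± 128, n = 2), with limma adjusted p-values of 6.46e-04, 0.00472 and 7.21e-05. The XVI and XV peaks were among the 4 lower in the ppm1 deletion as well. The XIII peak was the highest of all narrow peaks per kb, and in S412A it still was, at 3464 per kb. The rest of the 10 lowest were XIII:539853-541349 (-0.76), X:525561-527502 (-0.74), XIV:173268-175084 (-0.73), X:138693-140653 (-0.69), VII:109847-111179 (-0.68), IX:174342-175756 (-0.67) and V:430676-431902 (-0.65). With height set by the ppm1 libraries, 36 of the 89 narrow peaks in the high group were lower in S412A (40.4%), 15 of 69 in the middle group (21.7%) and 2 of 44 in the low group (4.55%). The shares of mid-width and wide peaks were 32.8% and 32.5% in the high group, 11 of 100 and 7.81% in the middle group, and 3.67% and 2 of 80 in the low group. The narrow peaks with the smallest p for a rise did not pass: IV:963406-965120 (log2 0.23), XIII:234375-236171 (0.19), XIII:482181-484154 (0.19), III:145345-147212 (0.12) and X:145826-147476 (0.11). With libraries centred on their medians all 5 passed, at log2 0.35 to 0.46 (limma adjusted p = 0.00874 to 0.0383).

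SL, the ppm1 deletion and S412A were also compared with each other. The ppm1 deletion was above SL at 77 narrow peaks (38.1%, against 25.4% over all peaks) and below SL at 34 (16.8%, against 21.3%), which makes 111 in all (55%, against 46.8%). Libraries were apart at 142 (70.3%, against 66.6%). Of the 106 peaks that fell in SL 75 were higher in the ppm1 deletion than in SL and 0 lower, and of the 33 that rose 28 were lower in the ppm1 deletion and 0 higher. Those peaks were picked with the same SL libraries, so these shares describe them and are no separate evidence. At X:138693-140653 the ppm1 deletion exceeded SL by a log2 difference of 1.23 (SE 0.14, limma adjusted p = 7.14e-16), and at IV:963406-965120 it was below SL by -0.89 (SE 0.13, limma adjusted p = 5.89e-11). Leaving out the first SL library gave 110 above and 17 below, and the second 63 and 54. Leaving out the first ppm1 library gave 44 and 12, and the second 75 and 8. With each peak's own spread both were 0.

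Between S412A and the ppm1 deletion 0 narrow peaks passed in either direction under limma, where 0.274% of all peaks passed as higher and 0% as lower, while 56 narrow peaks had an unadjusted p under 0.05 for a lower value in S412A and 0 for a higher one. Over all 731 peaks 123 had such a p for a lower and 17 for a higher value. Of these 17, 15 were first or last peaks of a chromosome, 2 were wide and 0 mid-width. The 2 peaks that passed as higher were also first or last peaks. The median log2 difference over narrow peaks was -0.25, and -0.03 with libraries centred on their medians. S412A lay outside both ppm1 libraries at 183 narrow peaks (90.6%, against 94.1% over all peaks). Without the first or second SL library 31 and 32 narrow peaks passed as lower in S412A.

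S412A was also set against SL, a comparison added after the data were seen. S412A was lower than SL at 46 narrow peaks (22.8%, against 28.5% over all peaks) and higher at 32 (15.8%, against 10.5%), which makes 78 in all (38.6%, against 39%). It lay outside both SL libraries at 154 (76.2%, against 81.7%). Of the 53 narrow peaks lower in S412A than in wild-type YPL, 13 were also lower than in SL, 4 were higher than in SL and 36 did not pass against SL. Among the 13 were the 3 narrow peaks highest per kb in SL by the mean of its libraries, X:18384-19594, XII:481000-482603 and XV:618732-620012. X:18384-19594 had a signal of 4041 and 4570 in wild-type YPL, 5863 and 3966 in SL, 3890 and 3301 in the ppm1 deletion and 2865 in S412A, which was below SL by a log2 difference of -0.75 (SE 0.16, limma adjusted p = 2.46e-05). IX:174342-175756 had 4078 and 4157 in wild-type YPL, 5058 and 3609 in SL, 3611 and 3142 in the ppm1 deletion and 2596 in S412A (log2 -0.72 against SL, SE 0.15, limma adjusted p = 4.01e-05). At XII:481000-482603, whose values are given above, S412A was below SL by -0.68 (SE 0.18, limma adjusted p = 0.00134). At these peaks S412A was the lowest of the 7 libraries and at least 1 SL library the highest. At X:138693-140653 S412A was instead above SL, though below the other YPL libraries (log2 0.72, SE 0.17, limma adjusted p = 3.20e-04). The count of peaks lower than in SL was 31 if the first SL library was left out and 72 if the second was, and the count of peaks higher was 21 without either wild-type YPL library. With each peak's own spread both counts were 0.

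**Figure D5:**
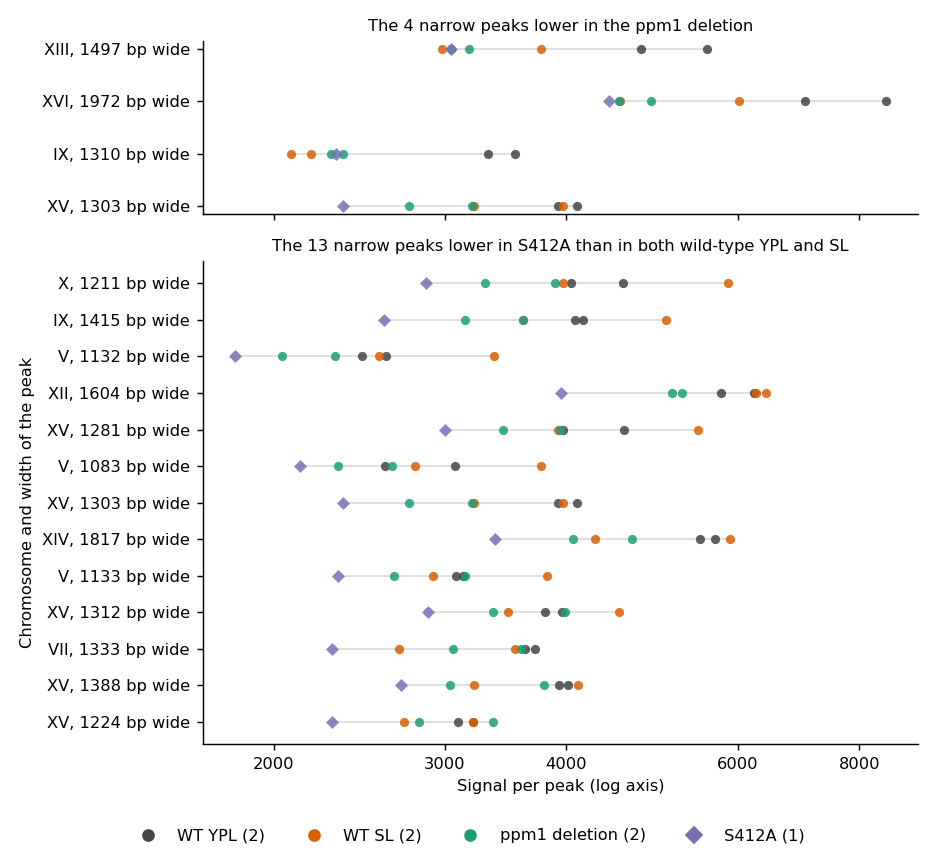
Signal per peak (log axis) in the 7 libraries at the 4 narrow peaks lower in the ppm1 deletion (top) and at the 13 lower in S412A than in both wild-type YPL and SL (bottom), labelled by chromosome and width. In the bottom panel the S412A diamond is the lowest point of each row, and in the top panel the wild-type YPL points are the highest except at the XV peak 1303 bp wide, where an SL point (3970) lies between them.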

How the data were processed

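ChIP-seq of HA-tagged Rph1 was deposited as 1 table with a signal value for 731 peaks in 7 libraries. The submitters' processing notes name Bowtie2 and the sacCer2 build. For the peak caller, read filters, merging of peaks and use of input, the sources used here name nothing. The deposited signal was never negative, and in each library 100% of values were whole multiples of 1 step (tolerance 0.001). It was read as reads per peak scaled to 22000000. No count model was used. The counting errors printed hold no other source of error.

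Log2 signal (pseudocount 0, as no value was 0) of all 731 peaks and 7 libraries was tested with limma 3.58.1 in R 4.3.3 (eBayes with trend), with group as the only term and 3 residual degrees of freedom. The prior degrees of freedom were infinite, so each peak took the spread of the trend over mean signal (SD 0.12 to 0.17 at narrow peaks, median 0.13). The narrow peaks' own SDs had a median of 0.13 and reached 0.26. P-values were adjusted over all 731 peaks (Benjamini-Hochberg, threshold 0.05). A fold change is 2 to the power of the log2 difference; SDs are of untransformed signal. The scaling by library total does not remove differences in the share of reads in peaks.

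For each comparison with wild-type YPL, up to 10 rising and 10 falling narrow peaks are named, by size of change, from those that passed with non-overlapping libraries. Where fewer than 5 passed, the 5 with the smallest p are given as not passing. Also named were the 10 highest and 5 lowest per kb, the 3 narrowest and the peaks at the width limit. Others (the run on chromosome X, the peaks lower in S412A than in SL) were chosen after their values were seen. The members and the rule for naming were chosen with earlier results of these data known. The number of sample columns left unused was 0.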

Additional observations from a re-analysis of the deposited data

How the results depend on the processing

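No named narrow peak with a call changed direction under the alternatives run. Of 709 values for named peaks 617 stayed on the same side of the threshold, 71 no longer passed and 21 newly passed. The median log2 difference of S412A over SL, -0.07, was 0.10 with median-centred libraries and 0.05 without the first SL library, that of SL over wild-type YPL, -0.29, was -0.14 with quantile normalization, and that of the ppm1 deletion over SL, 0.22, was 0.07. Those of S412A over wild-type YPL, -0.29, and over the ppm1 deletion, -0.25, were -0.06 and -0.03 with median-centred libraries and -0.10 and -0.07 with quantile normalization. Counts moved more. Higher in SL went from 33 to 55 with quantile normalization, 15 without the peaks of lowest signal and 8 with each peak's own spread (14 to 51 leaving out 1 library), and lower in SL from 106 to 46 with each peak's own spread (56 to 131). Lower in the ppm1 deletion went from 4 to 7 with quantile normalization and 0 with each peak's own spread (0 to 6), and higher from 0 to 1 with only the 2 groups compared. Lower in S412A went from 53 to 17 with median-centred libraries, 27 with quantile normalization, 28 without the trend and 0 with each peak's own spread (0 to 104), and higher from 0 to 9 and 4 with the 2 scalings. The ppm1 deletion above SL went from 77 to 0 with each peak's own spread (44 to 110), and below SL from 34 to 61 with quantile normalization, 15 without the peaks of lowest signal and 0 with each peak's own spread (8 to 54). S412A below the ppm1 deletion went from 0 to 1 without the peaks of lowest signal (0 to 32). S412A above SL went from 32 to 69 with median-centred libraries, 52 with quantile normalization and 0 with each peak's own spread (21 to 37), and below SL from 46 to 26 without the peaks of lowest signal and 0 with each peak's own spread (31 to 72). The cause was not tested, except that leaving out the lowest peaks removes some from the count and that a peak's own spread has 3 degrees of freedom. The median of the mean signal per kb was 2086 over 7 libraries, 2316 over the wild-type YPL libraries alone and 2048 to 2176 leaving out 1 library.

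The deviations of same-numbered replicates correlated at -0.33 between wild-type YPL and SL, -0.44 between wild-type YPL and the ppm1 deletion and 0.14 between SL and the ppm1 deletion (731 peaks), so the numbers were not taken to pair the samples. With a replicate block, narrow peaks called were 31 higher and 105 lower in SL, 0 and 4 in the ppm1 deletion, and 77 and 34 for the ppm1 deletion over SL. With the wild-type YPL numbers crossed they were 37 and 121, 0 and 6, and 101 and 42. No paired analysis was possible for S412A because it is 1 library with no replicate number. A count test was planned but not run, as the deposited values are not counts. The fits with each peak's own spread, with only 2 groups and with crossed numbers were added after the data were seen.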
